A study of Mus musculus with 6 samples.

Results

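The genes of major histocompatibility complex (MHC) class I antigen processing were followed in the sciatic nerve. 10 genes were chosen by name, *Nlrc5*, *Psmb8*, *Psmb9*, *Psmb10*, *Tap1*, *Tap2*, *Tapbp*, *Tapbpl*, *Erap1* and *B2m*. Each matched a single row of the deposited gene table, so that 10 of its 59485 genes are described. RNA-seq was performed on sciatic nerves at postnatal day 4, from 3 control and 3 mutant animals with 1 library each. Mutants are labelled Ht-PA-Cre; Adar1fl/fl;R26R. In these animals the human tissue plasminogen promoter drives Cre in neural crest (NC) cells and their derivatives, which include Schwann cells (SCs), and R26R is a YFP tracer of the same cells. Controls are labelled wild-type, a name the methods give to animals without Cre that still carry floxed *Adar1* alleles and R26R. Cells of the nerve that do not come from the NC, such as endothelial and blood cells, are not targeted by this Cre. Each value is a sum over all cells of a nerve, so fewer cells of a type and less RNA per cell cannot be told apart.

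The libraries held 50938349 to 78250094 reads counted on genes. Values are read counts divided by a size factor per library, hereafter normalized read counts, and 1 read was worth 0.727 to 1.27 of them. They are not divided by gene length, so levels were compared between libraries and not between genes. The targeted gene *Adar* was higher in mutant-labelled libraries, at 11768, 9311 and 9773 against 1602, 2066 and 1133 in control-labelled libraries (per-library values are always given in the order of replicates 1, 2 and 3). A single value per gene cannot tell reads of the deleted part from those of the rest, so it does not check the deletion. Libraries are named by their labels for this reason, as control-labelled or mutant-labelled. 4 SC markers (*Sox10*, *S100b*, *Erbb3* and *Foxd3*) were present in all libraries, with a summed value of 38294 to 41483 in control-labelled and 16641 to 23382 in mutant-labelled libraries. In that order their log2 fold changes, mutant-labelled minus control-labelled, were -0.71, -3.07, -1.55 and -0.38. Only *S100b* and *Erbb3* fell by more than 2-fold.

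MHC class I molecules display peptides of intracellular proteins at the cell surface, where cytotoxic T cells and NK cells read them. Peptides are cut by the proteasome, carried into the endoplasmic reticulum (ER) by the TAP transporter, trimmed there and loaded onto a heavy chain paired with beta-2 microglobulin. Interferons are known to raise the transcription of many of these genes, and most resting neural and glial cells keep class I molecules low.

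4 of the genes are neighbours on chromosome 17 (mm10) within the MHC region, in the order *Psmb9*, *Tap1*, *Psmb8* and *Tap2*, from 34181988 to 34216321, and *Tapbp* lies on the same chromosome. Promoter windows of 300 bases, from 250 before to 50 after the transcript start, were available for 7 of the 10 genes from RefSeq (GRCm38.p6, whose chromosomes are those of mm10). The set of windows used held none for *Nlrc5*, *Tap2* and *Tapbpl*. *Psmb9* and *Tap1* are transcribed away from each other, and their annotated starts leave 225 bases in between, so that both windows share 275 bases. The *Tap1* window (chr17:34187306-34187605, plus strand) is printed because a single stretch of DNA stands before both genes, and capitals mark the bases between the starts.
Tap1 and Psmb9: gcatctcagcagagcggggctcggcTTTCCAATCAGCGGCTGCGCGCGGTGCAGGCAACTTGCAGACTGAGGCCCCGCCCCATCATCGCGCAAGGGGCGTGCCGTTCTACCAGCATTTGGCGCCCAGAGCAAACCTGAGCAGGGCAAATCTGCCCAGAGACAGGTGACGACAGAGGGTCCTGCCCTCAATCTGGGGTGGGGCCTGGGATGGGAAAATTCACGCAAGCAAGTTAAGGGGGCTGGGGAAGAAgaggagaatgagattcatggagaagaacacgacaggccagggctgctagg

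Letters of elements known from class I and interferon-responsive promoters (ISRE, GAS, NF-kB and CRE) were searched on both strands of the windows. The ISRE core (GAAA, any 2 bases, GAAA) was found in *B2m* and *Erap1*, and in 3.44% of all 32851 promoter windows of the same length. A GAS element (TTCNNNGAA), which reads the same on both strands, was found in *Psmb8*, and in 8.3% of all windows. The NF-kB letters (GGG, any 3 bases, TTCC) were found in *B2m* and in 5.56% of all windows. The CRE (TGACGTCA) was found in none of the 7 windows and in 1.79% of all. The 3 windows with a match are printed with the matched letters in capitals, since they differ in which element they hold and where. With the first transcribed base counted as 0, the *B2m* window (chr2:122147437-122147736, plus strand) has the ISRE letters at -139 to -130 and the NF-kB letters, on the other strand, at -126 to -117. In the *Erap1* window (chr13:74639603-74639902, plus strand) the ISRE letters span the start, at -4 to 5 on the minus strand. The *Psmb8* window (chr17:34197945-34198244, plus strand) has the GAS letters at -97 to -89. These matches are a description of the letters and do not show that a factor was bound.
B2m: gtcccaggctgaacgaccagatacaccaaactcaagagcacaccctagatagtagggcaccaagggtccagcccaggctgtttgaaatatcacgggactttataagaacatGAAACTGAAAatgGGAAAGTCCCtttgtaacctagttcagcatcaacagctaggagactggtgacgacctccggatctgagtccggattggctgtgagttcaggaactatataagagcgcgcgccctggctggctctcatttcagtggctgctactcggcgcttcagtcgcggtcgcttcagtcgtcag
Erap1: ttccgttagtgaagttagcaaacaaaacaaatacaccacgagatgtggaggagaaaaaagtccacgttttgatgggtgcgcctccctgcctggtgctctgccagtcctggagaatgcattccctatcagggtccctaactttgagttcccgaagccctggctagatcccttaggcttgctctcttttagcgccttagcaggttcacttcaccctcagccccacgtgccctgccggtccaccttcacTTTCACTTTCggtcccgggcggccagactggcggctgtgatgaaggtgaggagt
Psmb8: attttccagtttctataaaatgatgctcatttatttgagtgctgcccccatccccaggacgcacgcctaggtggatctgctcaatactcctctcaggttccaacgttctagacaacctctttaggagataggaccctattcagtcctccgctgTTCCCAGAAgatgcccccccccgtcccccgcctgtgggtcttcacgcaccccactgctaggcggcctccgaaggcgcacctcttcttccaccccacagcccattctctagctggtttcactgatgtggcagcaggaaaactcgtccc

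All 10 genes rose in mutant-labelled nerves. Their log2 fold changes ran from 1.97 for *Tapbpl* to 4.96 for *Nlrc5*, with a median of 3.09, against a median of 0.03 over the 25802 genes tested. 10 of 10 passed the threshold (unadjusted p at or under 0.05 and at least 2-fold, limma), where 13.9% of all genes tested passed it upwards and 24.2% in either direction. With the adjusted p in place of the unadjusted one 10 of 10 passed, against 11.5% of all genes. In each of the 10 genes the lowest mutant-labelled value lay above the highest control-labelled value, as in 25.9% of all genes. The libraries of a genotype were not alike. Control-labelled replicate 2 was the highest control-labelled library for all 10 genes (30.5% of all genes), so each change is given with and without it.

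**Figure D1:**
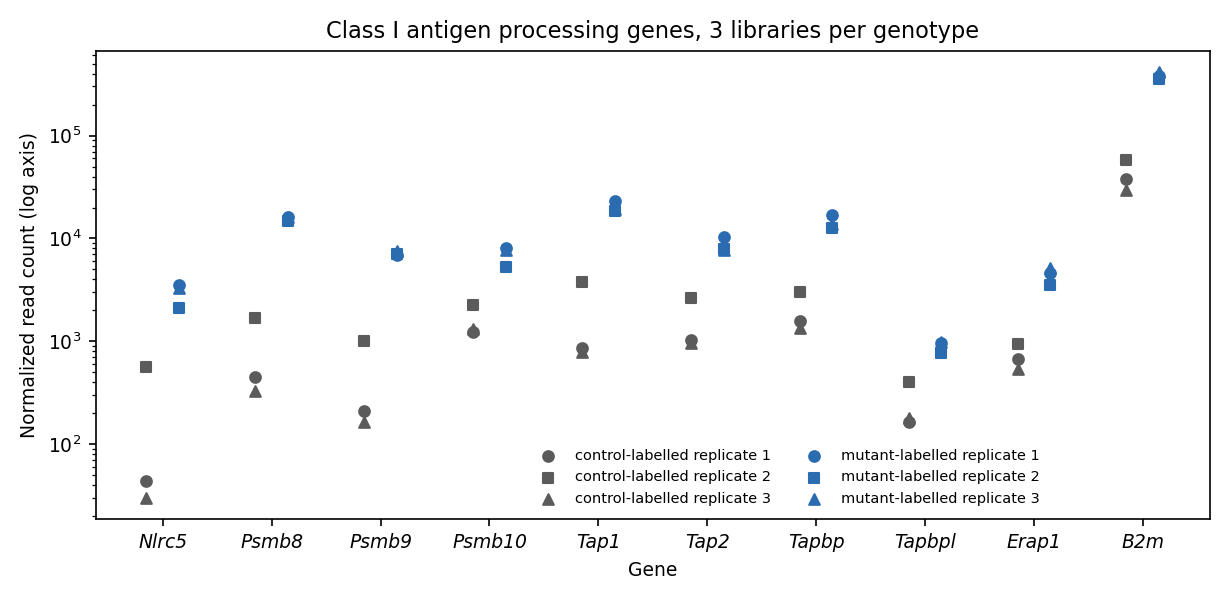
Normalized read count (y axis, log scale) of the 10 genes (x axis) in each library, with grey symbols for the 3 control-labelled and blue symbols for the 3 mutant-labelled libraries. For every gene the blue symbols lie above the grey ones, and the grey square (control-labelled replicate 2) lies above the other grey symbols.

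*Nlrc5* encodes the transactivator that acts on class I genes, as CIITA does on class II genes. Its control-labelled values were 44.4, 562 and 30.4. The mutant-labelled values were 3527, 2104 and 3277. The genotypes did not overlap, but the control-labelled values spread over more than an order of magnitude, and replicate 2 alone made up most of their mean of 212 ± 303 (SD, n = 3). On the log2 scale, with 1 added to each value, the change was 4.96 (SE, the standard error, 0.93, limma adjusted p = 0.00402). Without control-labelled replicate 2 it was 6.26 (SE 0.29, adjusted p = 1.21e-05), and the mutant-labelled mean of 2969 ± 760 was 79.4 times the mean of control-labelled replicates 1 and 3. Without control-labelled replicate 3 it was 4.18. No other of the 10 genes moved as far with 1 library.

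The immunoproteasome carries *Psmb8*, *Psmb9* and *Psmb10* in place of the constitutive catalytic subunits, which changes the peptides that are cut. *Psmb8*, the beta5i subunit, had values of 453, 1690 and 331 in control-labelled and 16330, 14836 and 16037 in mutant-labelled libraries. In the limma fit it had the second highest change after *Nlrc5*, at 4.63 on the log2 scale (SE 0.505, adjusted p = 0.000261) and at 5.34 without control-labelled replicate 2. The order depended on the fit. With edgeR *Nlrc5* was at 3.79, while the lowest *Psmb8* value over all alternatives was 4.17. *Psmb9*, the beta1i subunit, went from 210, 1014 and 163 to 6910, 7127 and 7604. Its change of 4.46 (SE 0.58, adjusted p = 0.000618) became 5.27 without that library. Both subunits were tight among the mutant-labelled libraries, at 15734 ± 792 and 7214 ± 355 (SD, n = 3). *Psmb10*, the beta2i subunit on chromosome 8, went from 1244, 2263 and 1319 to 8069, 5263 and 7791. The log2 difference was 2.16 (SE 0.25, adjusted p = 0.000339), or 2.43 without control-labelled replicate 2. The 95% confidence interval of *Psmb10* (1.59 to 2.73) did not reach those of *Psmb8* (3.48 to 5.79) and *Psmb9* (3.14 to 5.78), and the differences between the genes were not tested.

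TAP1 and TAP2 form the transporter that brings peptides into the ER. *Tap1* was at 871, 3798 and 782 in control-labelled libraries. In mutant-labelled libraries it was at 22928, 18616 and 19335, a rise of 3.88 log2 units (SE 0.52, adjusted p = 0.000722). *Tap2*, the gene of its partner, went from 1030, 2669 and 968 to 10272, 7924 and 7806. It rose by 2.63 log2 units (SE 0.35, adjusted p = 0.0007). Without control-labelled replicate 2 the changes were 4.61 and 3.10. The ratio of *Tap1* to *Tap2* reads, which needs no scaling between libraries, was 0.845, 1.42 and 0.808 in control-labelled and 2.23, 2.35 and 2.48 in mutant-labelled libraries. The mutant-labelled ratios were all higher than the control-labelled ones. This ratio was examined after the values were seen and was not tested.

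Tapasin (*Tapbp*) holds the transporter to the empty class I molecule, and TAPBPR (*Tapbpl*), its relative, edits the bound peptide outside that complex. *Tapbp* had values of 1591, 2994 and 1348 in control-labelled and 16854, 12761 and 13678 in mutant-labelled libraries, a rise of 2.95 log2 units (SE 0.27, adjusted p = 0.000103). *Tapbpl* had the smallest change of the 10 genes. It went from 165, 406 and 181 to 966, 778 and 988, a rise of 1.97 log2 units (SE 0.33, adjusted p = 0.00217). Here the genotypes came closest, with the lowest mutant-labelled value 1.91 times that of control-labelled replicate 2. Leaving out that library gave log2 fold changes of 3.29 and 2.38. *Tapbp* reads exceeded those of *Tapbpl* by 9.57, 7.35 and 7.41 times in control-labelled and by 17.4, 16.4 and 13.8 times in mutant-labelled libraries, without correction for length and untested.

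*Erap1* encodes the ER aminopeptidase that shortens peptides to the length class I molecules hold. It had values of 670, 935 and 536 in control-labelled and 4611, 3536 and 5120 in mutant-labelled libraries, a rise of 2.65 log2 units (SE 0.22, adjusted p = 5.91e-05). *B2m*, the light chain of all classical class I molecules, had control-labelled values of 38110, 58179 and 29910. It reached 382452, 350881 and 414348 in mutant-labelled libraries. The rise of 3.24 log2 units (SE 0.22, adjusted p = 2.29e-05) had the smallest adjusted p of the 10 genes. *Erap1* and *B2m* were also the least affected by control-labelled replicate 2, without which they changed by 2.86 and 3.50.

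**Figure D2:**
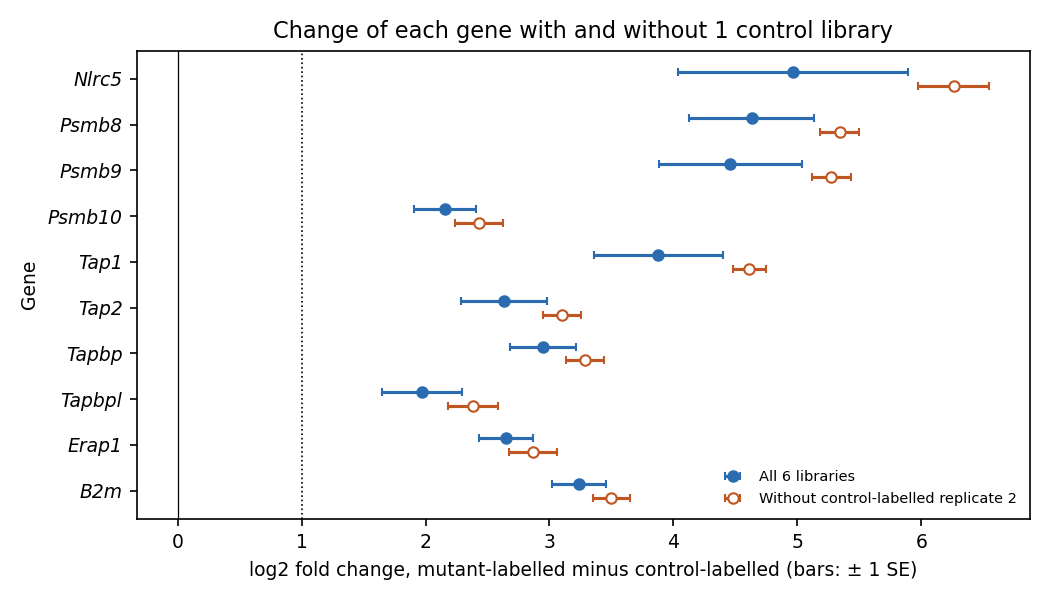
Log2 fold change of each gene, mutant-labelled minus control-labelled (x axis, bars of 1 standard error, SE), with all 6 libraries (filled) and without control-labelled replicate 2 (open); the dotted line marks a 2-fold change. Every gene moves to the right without that library, from 4.96 to 6.26 for *Nlrc5* and from 2.65 to 2.86 for *Erap1*.

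Control-labelled replicate 2 was examined further, since it decided the spread of the control-labelled libraries. Its excess over the mean of control-labelled replicates 1 and 3 differed widely between the genes. It was 15-fold for *Nlrc5*, 5.43-fold for *Psmb9*, 4.6-fold for *Tap1* and 4.31-fold for *Psmb8*. It was 2.67-fold for *Tap2*, 2.34-fold for *Tapbpl* and 2.04-fold for *Tapbp*. *Psmb10*, *B2m* and *Erap1* were at 1.77, 1.71 and 1.55-fold. 7 of the 10 genes were thus at least 2-fold higher in this library, against 6.3% of all genes tested. The constitutive subunits *Psmb5*, *Psmb6* and *Psmb7* were at 1.1, 0.991 and 0.995-fold in the same library. The mutant-labelled mean stayed above this library for every gene, from 2.24-fold for *Tapbpl* to 9.31-fold for *Psmb8*. The excess of this single library was not tested.

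**Figure D3:**
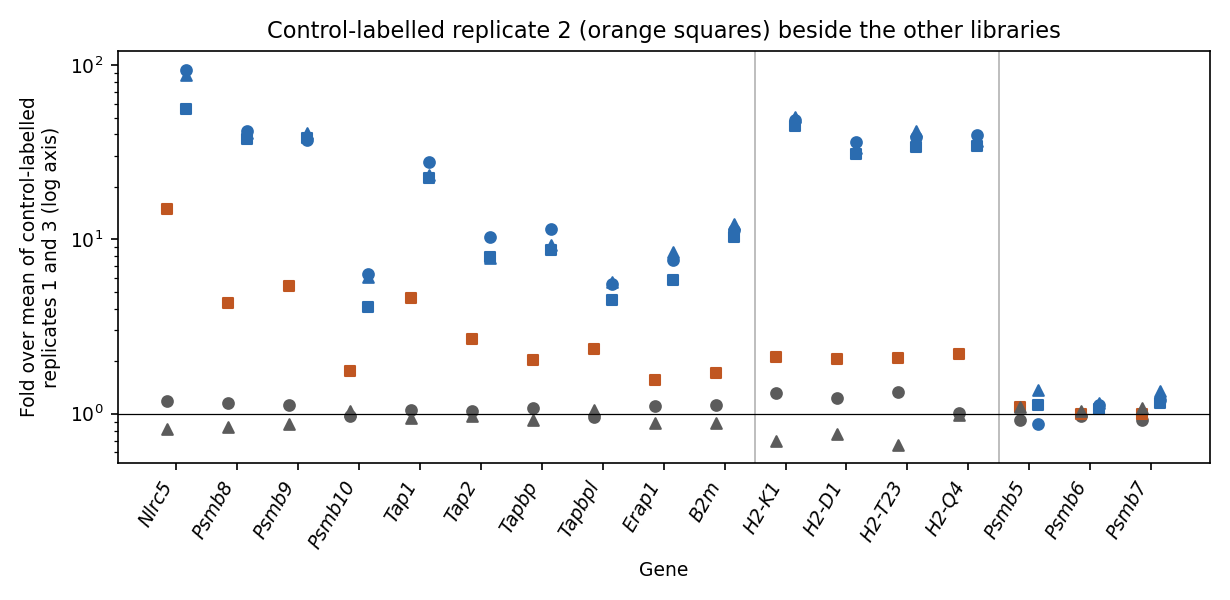
Each library's normalized read count divided by the mean of control-labelled replicates 1 and 3 (y axis, log scale), for the 10 genes, 4 class I heavy chains and the 3 constitutive catalytic subunits (x axis). Grey symbols are control-labelled replicates 1 and 3, orange squares control-labelled replicate 2, and blue symbols the mutant-labelled libraries (circle, square and triangle for replicates 1, 2 and 3); orange squares reach 15 for *Nlrc5* and stay near 1 for the constitutive subunits.

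Markers of immune cells were followed in this library. Those of T and NK cells summed to 146 in control-labelled replicate 2, against 230 and 112 in replicates 1 and 3, and macrophage markers to 15539 against 17368 and 13609. Single markers were higher in it. It was the highest control-labelled library for 5 of 8 macrophage markers, among them *Ptprc*, which other immune cells share. The excess was at most 1.32-fold over the mean of the others (*Adgre1* at 554 against 458 and 381). *Cd3e* was at 25.5 in this library against 8.88 and 5.07. The 4 B cell markers summed to 113 in it against 143 and 113, and the 6 dendritic cell markers to 472 against 661 and 613. Within these lists *Ms4a1* (28.3 against 11.1 and 2.53) and *Flt3* (15.1 against 8.88 and 5.07) were higher in it, while *Cd79a*, *Cd79b*, *Siglech* and *Zbtb46* were lower in it than in either of the others. Skeletal muscle markers were lower there, at 6110 against 32211 and 24612. The library also differed by sex-linked reads. 4 Y-linked genes (*Ddx3y*, *Eif2s3y*, *Kdm5d* and *Uty*) summed to 6171 in control-labelled replicate 2, to 7273 and 7745 in mutant-labelled replicates 1 and 3, and to 0 in the other 3 libraries. Mutant-labelled replicate 2, without Y-linked reads, was the lowest mutant-labelled library for 8 of the 10 genes (36.3% of all genes). With the presence of Y-linked reads as a term in the fit, an alternative added after the data were seen, all 10 genes still passed the threshold, with log2 fold changes of 1.71 (*Tapbpl*) to 4.26 (*Psmb8*), and *Nlrc5* at 4.20. The term itself ran from 0.48 for *B2m* to 2.30 for *Nlrc5* on the log2 scale, higher with Y-linked reads for all 10 genes. Its unadjusted p-values were 0.000223 to 0.0275, and 4 of 10 passed the threshold for it (*Nlrc5*, *Psmb9*, *Tap1* and *Psmb8*), against 1.12% of all genes tested, while the adjusted p-values were 0.32 to 0.95. The term rests on 1 control with and 1 mutant without Y-linked reads, so that sex and these single libraries cannot be told apart.

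The catalytic subunits of the immunoproteasome were set against the constitutive subunits they replace, within each library. *Psmb5*, *Psmb6* and *Psmb7* did not pass the threshold. Their log2 fold changes were 0.10 (95% confidence interval -0.28 to 0.48), 0.16 (-0.03 to 0.35) and 0.30 (0.07 to 0.53, adjusted p = 0.0483). The read ratio of *Psmb8* to *Psmb5* was 0.154, 0.476 and 0.0944 in control-labelled and 5.79, 4.11 and 3.61 in mutant-labelled libraries. It shifted by 4.53 on the log2 scale. *Psmb9* to *Psmb6* went from 0.0193, 0.0903 and 0.014 to 0.542, 0.592 and 0.58, a shift of 4.30, with very even mutant-labelled libraries. *Psmb10* to *Psmb7* went from 0.204, 0.343 and 0.184 to 1.02, 0.689 and 0.875, a shift of 1.86. The ratios are of reads not corrected for length, so their change and not their level is informative. No ratio overlapped between the genotypes. In each of the 3 pairs an exact two-sided permutation test gave p = 0.1 (0.1 after Benjamini-Hochberg adjustment over the 3 pairs), the smallest value that 3 libraries against 3 can give.

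**Figure D4:**
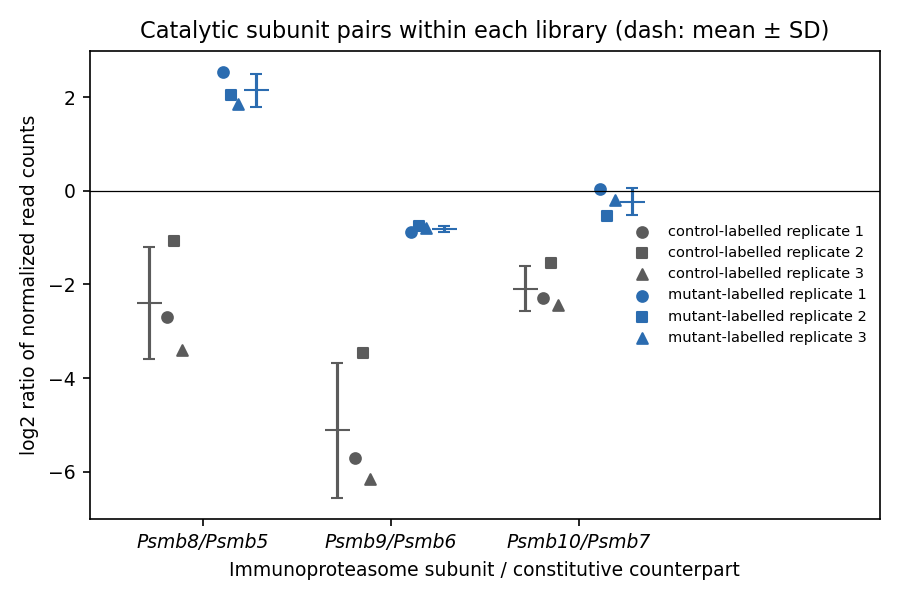
Log2 ratio of normalized read counts (y axis) of each immunoproteasome subunit to its constitutive counterpart (x axis), per library, with the mean and SD of each genotype (n = 3) beside the points. Mutant-labelled libraries (blue) lie above all control-labelled ones (grey) in each pair, and control-labelled replicate 2 (grey square) is the highest of its group.

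The class I heavy chains pair with *B2m*, and those that present peptides are filled by the loading genes. 13 of 13 listed heavy chains passed the threshold upwards, against 13.9% of all genes tested. Their median log2 fold change was 4.95, which was the same (4.95) with *H2-Q2* at its lower bound. *H2-K1*, a classical heavy chain, went from 3044, 4904 and 1612 to 112989, 104328 and 116967 (log2 fold change 5.27, adjusted p = 1.73e-05). *H2-D1*, the other classical chain found, went from 4717, 7825 and 2904 to 138660, 118428 and 127303 (4.75, adjusted p = 1.72e-05). *H2-Q6*, listed together with *H2-Q8*, had the largest fitted rise at a pseudocount of 1, though not at 0.1. It was 8.35, which became 9.12 without control-labelled replicate 2 and 7.42 without replicate 3. *H2-Q2* had no reads in control-labelled libraries and was at least 33.7-fold higher in mutant-labelled ones, counting 3 reads per control library as the floor, which covers counting error only. It entered the test only through the mutant-labelled libraries. Heavy chains are near-identical in sequence and their reads can be split between copies. The ratio of *H2-K1* to *B2m* reads was 0.0799, 0.0843 and 0.0539 in control-labelled libraries and 0.295, 0.297 and 0.282 in mutant-labelled libraries, and was not tested. Control-labelled replicate 2 exceeded the other control-labelled libraries less for the classical heavy chains than for *Nlrc5*, by 2.11-fold for *H2-K1* and 2.05-fold for *H2-D1*.

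The remaining machinery was read against the 13.9% of all genes that passed upwards. Of 9 proteasome activators and assembly factors, 2 passed it upwards, the PA28 subunits *Psme1* (log2 fold change 1.62, adjusted p = 0.000121) and *Psme2* (1.57, adjusted p = 0.000481). PA28 opens the proteasome and is, like the immunoproteasome, known to respond to interferon. *Pomp*, which helps assemble new proteasomes and was picked after its values were seen, was at 5221, 5457 and 5521 in control-labelled and 5186, 5019 and 5608 in mutant-labelled libraries (-0.04, 95% confidence interval -0.24 to 0.16). None of 5 ER chaperones passed. Calreticulin (*Calr*), calnexin (*Canx*) and ERp57 (*Pdia3*), which fold and hold the class I molecule, changed by -0.26, -0.24 and -0.23, with adjusted p-values of 0.0935, 0.058 and 0.106. The other two moved in opposite directions, BiP (*Hspa5*), a general ER chaperone, by 0.63 (adjusted p = 0.00202) and *Uggt1*, which checks glycoprotein folding, by -0.29 (adjusted p = 0.0484). Of 8 cytosolic and vesicular peptidases 1 passed, *Lnpep*, the endosomal relative of *Erap1* (1.14, adjusted p = 0.00881). *Lap3*, a leucine aminopeptidase also picked after its values were seen, lay just below 2-fold at 0.97 (adjusted p = 0.000486), and passed when libraries were rescaled to the same total (1.14) or without control-labelled replicate 2 (1.03), control-labelled replicate 3 (1.01) or mutant-labelled replicate 2 (1.05). The median log2 fold changes of these lists were 0.45, -0.24 and 0.05.

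Of 13 regulators of class I transcription 4 passed upwards (13.9% of all genes), with a median of 0.45 over the list. They were *Stat2* (2.98, adjusted p = 7.67e-05), *Irf9*, *Irf1* and *Irf2*, which relay or answer interferon signals. *Irf1*, known to act on the *Tap1* and *Psmb9* promoter, had values of 582, 2639 and 632 in control-labelled and 7449, 5389 and 7458 in mutant-labelled libraries (2.75, adjusted p = 0.00376, and 3.46 without control-labelled replicate 2). In control-labelled replicate 2 it was 4.35-fold over the mean of control-labelled replicates 1 and 3, and *Stat2* was at 1.81, *Irf9* at 1.94 and *Irf2* at 0.93-fold. *Rfx5*, part of the complex through which NLRC5 reaches class I promoters, had a change of 0.25 (95% confidence interval -0.33 to 0.82). The partners *Rfxap*, *Rfxank*, *Creb1*, *Nfya*, *Nfyb* and *Nfyc* did not pass either, with log2 fold changes of -0.65 (*Rfxank*) to 0.89 (*Creb1*). *Creb1* passed when libraries were rescaled to the same total (1.06) and without control-labelled replicate 1 (1.08) or mutant-labelled replicate 1 (1.04).

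Class II presentation followed another course. 11 genes were listed and 9 were tested. 1 passed upwards and 4 downwards (10.4% of all genes tested passed downwards), with a median of -0.87. *Ciita*, the class II counterpart of *Nlrc5*, was at 0, 0 and 12.7 in control-labelled and 13.1, 13.5 and 9.89 in mutant-labelled libraries, at the limit of what could be measured, and did not pass except without control-labelled replicate 3 (3.71). *H2-DMa*, a peptide editor of class II molecules, fell from 1779, 1664 and 1851 to 426, 328 and 192 (-2.55, adjusted p = 0.000196). *H2-Ab1* (-1.93) and *H2-DMb1* (-1.80) fell with it, as did *H2-Eb1* (-1.03), whose call was lost with a pseudocount of 10 (-0.97), with a common total (-0.87), with the Y-linked term (-0.82), and without control-labelled replicate 1 (-0.90) or 3 (-0.89) or mutant-labelled replicate 3 (-0.85). *H2-Aa* passed only without mutant-labelled replicate 2 (-1.23). The invariant chain *Cd74* had a change of 0.95 (adjusted p = 0.0205), which passed without control-labelled replicate 3 (1.12) or mutant-labelled replicate 3 (1.15) and with a common total (1.11), and cathepsin S (*Ctss*), which cleaves it, rose by 1.32. Genes of the macrophage marker list moved in both directions beside these. *Mrc1* and *Csf1r* fell (-2.27 and -1.25) while *Aif1* rose (1.04). *Ptprc*, which encodes CD45 and is shared by other immune cells, rose by 1.33. The 8 listed markers, *Ptprc* included, summed to 13609 to 17368 in control-labelled and 11931 to 14060 in mutant-labelled libraries.

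**Figure D5:**
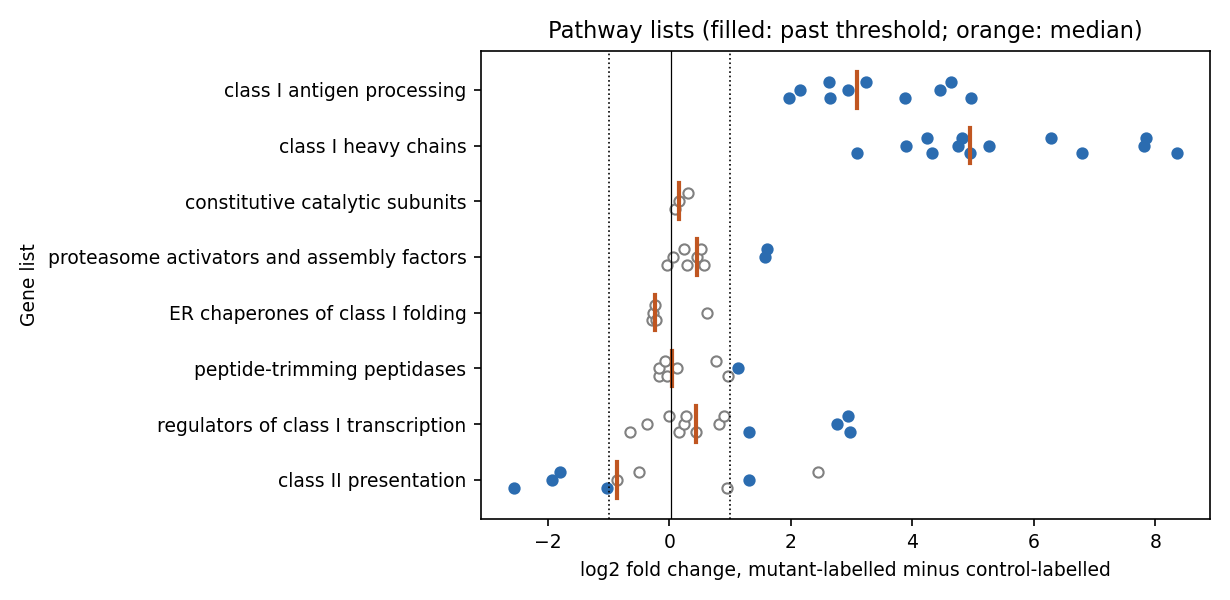
Log2 fold change (x axis) of each tested gene of the class I antigen processing genes and 7 pathway lists (y axis). Filled circles passed the threshold, open circles did not, orange bars are list medians, the solid line is the median of all genes tested (0.03) and dotted lines mark 2-fold changes; both class I rows lie to the right of the 2-fold line.

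Immune cells express class I processing genes strongly, so their markers were followed in the same libraries. Of 8 T and NK cell markers 7 were tested and 5 passed upwards, against 13.9% of all genes. They were *Ncr1*, *Cd8a*, *Cd2*, *Klrb1c* and *Cd4*, of which *Cd4* overlapped between the genotypes and did not pass with the adjusted p (0.0542). Their summed value was 112 to 230 in control-labelled and 373 to 558 in mutant-labelled libraries. *Cd3d* and *Cd8a*, which define T cells, were at 0 in all control-labelled libraries, as was *Ncr1*, which defines NK cells. In mutant-labelled libraries *Cd3d* was at 5.82, 3.86 and 9.89, *Cd8a* at 20.4, 19.3 and 5.93, and *Ncr1* at 50.9, 75.3 and 37.6. The T cell genes *Cd3e* and *Cd3g* had reads in all 6 libraries and did not pass. *Cd3e* was at 8.88, 25.5 and 5.07 in control-labelled and 24.7, 19.3 and 5.93 in mutant-labelled libraries, and *Cd3g* at 13.3, 7.56 and 7.60 in control-labelled and 13.1, 75.3 and 13.8 in mutant-labelled libraries. The 4 B cell markers summed to 113 to 143 in control-labelled and 68.2 to 95.3 in mutant-labelled libraries, and none passed. Of 6 dendritic cell markers 3 were tested. *Itgax* passed upwards and *Siglech* downwards (adjusted p = 0.0944), and the 6 summed to 472 to 661 in control-labelled and 639 to 736 in mutant-labelled libraries. *Zbtb46*, which did not pass (-0.06 on the log2 scale), made up most of this sum in every library. The 4 neutrophil markers summed to 15.1 to 153 and 67.3 to 402, which overlap, and none of the 3 tested passed. *Ly6g*, too low to be tested, was at 0 in control-labelled libraries and at 2.91, 0 and 5.93 in mutant-labelled libraries. The 5 endothelial markers, none of which passed, summed to 12507 to 19207 and 17514 to 23399. The 6 fibroblast and perineurial markers summed to 1222030 to 1393240 and 482138 to 752889, with *Col1a1* and *Itgb4* lower. *Col1a1* made up most of this sum. The other 4, *Dcn* (0.00 on the log2 scale), *Pdgfra* (0.16), *Lum* (-0.43) and *Slc2a1* (-0.27), did not pass. The 6 muscle markers summed to 6110 to 32211 and 40330 to 306302, with 5 higher, and the 4 erythroid markers to 25886 to 35138 and 2224 to 6998, with 3 lower. The part of these cells in the rise of the class I genes was not tested.

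5 members overlap an unnamed or other gene on the opposite strand in the table, and *B2m* overlaps *Patl2*, while none overlaps another gene on its own strand. Whether counting used the strand is not given in the sources used here. An unnamed gene antisense to *Psmb8* (GSMG0066770) had values of 7.8, 25.5 and 2.5 in control-labelled and 270.6, 263.4 and 379.8 in mutant-labelled libraries. That antisense to *Tap2* (GSMG0017424) went from 3.3, 14.2 and 1.3 to 154.9, 148.6 and 99.9. The gene antisense to *Psmb10* (77.7, 81.3 and 55.8) and that antisense to *Tapbp* (116.6, 88.8 and 74.8) reached 253.1, 148.6 and 294.7, and 235.7, 268.2 and 198.8. Control-labelled replicate 2 was the highest of its group for 3 of these 4, and not for that antisense to *Tapbp*. *Vamp1* (listed with *E130112N10Rik*), which overlaps *Tapbpl*, went the other way, from 840.6, 949.6 and 940.3 to 376.1, 459.3 and 573.7.

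The genes whose profile over the 6 libraries lay nearest to the median profile of the 10 were *Trim12c*, *Nmi*, *Irf9*, *Tnfrsf14* and *Stat2*. The measure was the Euclidean distance between log2 values centred on each gene's mean, and it was 0.28, 0.33, 0.358, 0.465 and 0.52. *Trim12c*, a TRIM family gene, had values of 214.3, 458.3 and 190.1 in control-labelled and 2036.7, 1712.6 and 2015.7 in mutant-labelled libraries. Among the 10 genes themselves *Tapbp* lay nearest to the median profile (0.348), and *Nlrc5* (3.24), *Psmb8* (2.13) and *Psmb9* (2.04) farthest.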

How the data were processed

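The authors mapped paired reads of poly-A RNA to mm10 with STAR 2.4.0, counted reads on constitutive regions of FAST DB genes and scaled each library by its size factor from DESeq2. Such a signal, in 1 column per library, is what was deposited. All values above 0 were whole multiples (within 0.01) of the smallest in their library, so reads were recovered for edgeR and DESeq2. Groups and replicate numbers came from the labels. Mutant minus control differences of log2(value + 1) came from limma (lmFit, then a trended eBayes) for 25802 genes with a mean of at least 10 in 1 genotype, with Benjamini-Hochberg adjustment over these. The threshold followed the study's methods. The main fit did not pair libraries by replicate number, and 3 libraries per genotype cannot exclude a pairing. Marker and pathway lists are textbook lists, of which 3 genes are not reported here. Genes named outside the 10 were those set by name, the largest rise and fall past the threshold in each list, and the 5 nearest profiles. Others, among them *Pomp*, *Lap3*, *Creb1*, *Hspa5*, the further class II genes, single markers and the genes ranked by control-labelled replicate 2, were picked after their values were seen. The 10 genes and the lists were chosen with earlier results of these data known. limma, edgeR and DESeq2 were tested on simulated data, and motifs were searched by exact letters. Alternatives were other pseudocounts, filters, scalings and tests, a block, and each library left out. R 4.3.3, limma 3.58.1, edgeR 4.0.16, DESeq2 1.42.0, Python 3.11.15 and matplotlib 3.10.9 were used.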

Additional observations from a re-analysis of the deposited data

How the results depend on the processing

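All 10 genes passed the threshold with all 6 libraries and under each of the 19 alternatives run, which included an adjusted p as the criterion, edgeR and DESeq2. Without control-labelled replicate 2 the changes were the largest, up to 6.26 for *Nlrc5* and 5.34 for *Psmb8*. Without control-labelled replicate 3 that of *Nlrc5* was 4.18, and edgeR gave *Nlrc5* its lowest value, 3.79. The count of all genes past the threshold lay between 4706 (a mean of at least 50) and 6892 (no filter), against 6251. Leaving out 1 library at a time gave 5743 to 6334. The count over the pathway lists lay between 24 and 27, against 25. The shifts of the 3 subunit ratios with 1 library left out were 4.03 to 5.20 for *Psmb8*, 3.78 to 5.12 for *Psmb9* and 1.68 to 2.13 for *Psmb10*. Rescaling to the same total moved the median of all genes from 0.03 to 0.19 on the log2 scale, with no change of direction among the 10. The replicate block gave 6149 genes and changed no call among the 10. Deviations of same-numbered libraries correlated at -0.06, -0.06 and 0.01 across genes, and 2 of the 6 libraries correlated best with their own number. With 3 animals per genotype, several listed genes, among them *Rfx5* and *Ciita*, had confidence intervals that span 0.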

Other observations

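The excess of control-labelled replicate 2 was not limited to class I processing. Genes were ranked by their value in this library over the mean of control-labelled replicates 1 and 3, among 11339 named genes with a value of at least 200 there and without the 4 Y-linked genes. This ranking was made after the values were seen and carries no test. The limit of 200 was set in the library that was ranked, which favours genes high in it. *Nlrc5*, at 44.4, 562.2 and 30.4 in control-labelled libraries, entered only through it. *Nlrc5* came at rank 7, *Psmb9* at 24, *Tap1* at 27 and *Psmb8* at 30, while *Erap1* came at 196. The first 6 ranks were held by *Tgtp2*, *Gbp10*, *Gm12250*, *Tgtp1* (listed with *Gm12185*), *Iigp1* and *Gbp4*, which are immunity-related GTPases and guanylate-binding proteins that restrict intracellular pathogens. *Iigp1* had values of 426.4, 4114.1 and 73.5 in control-labelled and 47298.7, 40296 and 41690.4 in mutant-labelled libraries. *Igtp*, at rank 10, had values of 578.5, 5279.1 and 283.9 in control-labelled libraries. *Ifit3*, an interferon-induced gene of another family, was 9.48-fold higher in control-labelled replicate 2 than in the other control-labelled libraries and came at rank 14. The part of this library in the spread of other interferon-responsive genes was not tested.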
